A study of Homo sapiens with 28 samples.

Results

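AP-1 is a family of dimeric transcription factors, and the 8 genes described here are its FOS proteins (FOS, FOSB, FOSL1, FOSL2), its JUN proteins (JUN, JUNB, JUND) and the related factor ATF3. They were chosen as a named family, with earlier results of these data known and no threshold on a measured value. In the RNA-seq table they are 8 of 25807 gene symbols, and all 8 were among the 15391 genes that passed the filter on low counts. In the screen they are the targets of 45 of 109367 guide RNAs: 6 guides each for FOS, FOSB, FOSL1, JUNB and JUND, and 5 each for FOSL2, JUN and ATF3.

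FOS proteins bind DNA as heterodimers with a JUN protein, whereas JUN proteins can also pair among themselves. Many AP-1 genes are immediate-early genes: serum, growth factors, cytokines and stress switch on their transcription within minutes through MAP kinases, and JNK also phosphorylates JUN directly. ATF3 is a stress-induced bZIP factor that can pair with JUN proteins, and in osteosarcoma the family has a history of its own, since FOS was found as the oncogene of a virus that causes bone tumours in mice.

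All samples came from U2OS, a human osteosarcoma cell line kept in serum-containing medium. For RNA-seq, recipient cells with wild-type p53 were taken at the start (T0, 0 h) or after 8 h in medium conditioned by donor U2OS cells, which were p53 wild-type (WT) or p53 knockout (KO) and had received DMSO or 31.6 µM etoposide, a topoisomerase II poison that breaks DNA. This gave 5 groups of 2 libraries, named below by the donor: T0, WT DMSO, KO DMSO, WT etoposide and KO etoposide. For the screen, WT and KO cells carrying a pooled genome-wide guide library were collected at T0 and after 96 h without or with 5 µM etoposide. This gave 6 groups of 3 libraries, and guides were counted in genomic DNA. The 96 h screen libraries without etoposide are titled untreated and are named DMSO below. Whether the knockout line is 1 clone is not stated. Nor is it stated that the libraries of a group are separate cultures: p-values measure only the spread between these samples, which may be technical.

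RNA libraries held about 16825700 to 20290800 counts and screen libraries 30437300 to 48230700. The 2 KO DMSO RNA libraries stood apart from each other: the chi-square statistic per gene between them was 12.8, against 1.90 to 5.09 in the other RNA groups. Changes and counts that rest on them are therefore also given without each. Of the bone lineage markers, COL1A1 (1187 to 1711 RPKM, counts scaled to library size and gene length) and VIM (943 to 1192 RPKM) were high, while SP7, IBSP and COL1A2 did not exceed 0.234 RPKM. The 5 leukocyte markers summed to 1.32 to 2.53 CPM (counts scaled to library size) at T0. Their sum was 1.03 to 1.68 CPM in the DMSO media and 2.03 to 3.74 CPM in the etoposide media. Of the 5 epithelial markers KRT8 (326 to 440 RPKM) and KRT18 (274 to 505 RPKM) were high, while EPCAM, CDH1 and KRT19 did not exceed 1.60 RPKM. The part of these markers in the results was not tested. In such bulk samples fewer cells of a type and less RNA per cell cannot be told apart.

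Upstream of their starts 6 members carry related short motifs, shown here because AP-1 genes are known for cAMP-response-element (CRE) and AP-1-like motifs near their starts. RefSeq promoters (GRCh38.p14) were found for 7 of the 8 members; the FOSL1 promoter was not analysed here. The 130 bases directly upstream of the start are printed 5′ to 3′ on the gene's strand, with capitals marking TGACGT (or ACGTCA, its reverse complement) in FOS, FOSB, FOSL2 and JUND, and TGACATCA in JUN and ATF3.
FOS, chr14:75278698-75278827, plus strand: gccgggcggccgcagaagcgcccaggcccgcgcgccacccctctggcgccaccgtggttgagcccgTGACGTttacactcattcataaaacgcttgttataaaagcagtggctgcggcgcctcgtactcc
FOSB, chr19:45467866-45467995, plus strand: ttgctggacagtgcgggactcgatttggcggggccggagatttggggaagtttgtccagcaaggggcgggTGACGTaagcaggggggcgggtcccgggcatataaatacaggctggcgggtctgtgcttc
FOSL2, chr2:28392728-28392857, plus strand: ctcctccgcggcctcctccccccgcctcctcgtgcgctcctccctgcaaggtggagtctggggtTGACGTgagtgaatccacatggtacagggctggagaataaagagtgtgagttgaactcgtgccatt
JUN, chr1:58784048-58784177, minus strand: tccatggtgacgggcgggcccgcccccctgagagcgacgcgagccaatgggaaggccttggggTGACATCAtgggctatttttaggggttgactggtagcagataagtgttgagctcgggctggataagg
JUND, chr19:18281623-18281752, minus strand: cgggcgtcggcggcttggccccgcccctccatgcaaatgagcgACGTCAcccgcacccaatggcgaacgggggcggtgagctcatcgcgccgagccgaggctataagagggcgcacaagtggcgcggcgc
ATF3, chr1:212565277-212565406, plus strand: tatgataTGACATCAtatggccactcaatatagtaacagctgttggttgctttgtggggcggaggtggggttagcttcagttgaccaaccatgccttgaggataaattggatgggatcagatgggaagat
In FOS, FOSB and FOSL2 the TGACGT began at positions -64, -60 and -66 relative to the start, at nearly the same distance. Searched on both strands over the 250 upstream bases, TGACGT was found in 7.1% of 35116 RefSeq promoters and TGACATCA in 2.37%. TGACGT lies within the full CRE, TGACGTCA, which was present in JUND at position -200 and in 1.65% of promoters. JUN also held TTACCTCA at position -186 (0.644% of promoters), and ATF3 held TGACATCA at position -123 of the first of its 2 listed starts. TGACATCA and TTACCTCA were searched as the jun1 and jun2 variants, named after JUN. Their presence in JUN is therefore no finding, and their shares of promoters do not bear on it. The consensus AP-1 site TGANTCA (6.57% of promoters) was found in none of the 7 members in this window, and neither were the CArG box (1.16%) and the kappaB motif (9.96%). JUNB held none of the CRE-type motifs in this window, and neither did the second ATF3 start. The TATA box TATAAA, found in 10.7% of promoters, began at positions -33, -30 and -31 in FOS, FOSB and JUNB. A match is a description of letters, not of a bound site or a cause.

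After 8 h in medium from etoposide-treated donors, recipients held more FOSL1, JUNB and ATF3 RNA and less FOSL2 RNA than in the matching DMSO medium, with either donor. FOSB rose 9.30-fold with KO donors and was not called with WT donors, and FOS fell with WT donors and was not called with KO donors. For both genes the difference between donors was itself past the threshold, though for FOS that call was lost in 6 of 12 alternative fits. JUN, the family's best-known member, was not called in any of these comparisons. Calls below are an adjusted p under 0.05 by edgeR's quasi-likelihood test with Benjamini-Hochberg adjustment over all genes, and log2 changes carry their standard error.

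**Figure D1:**
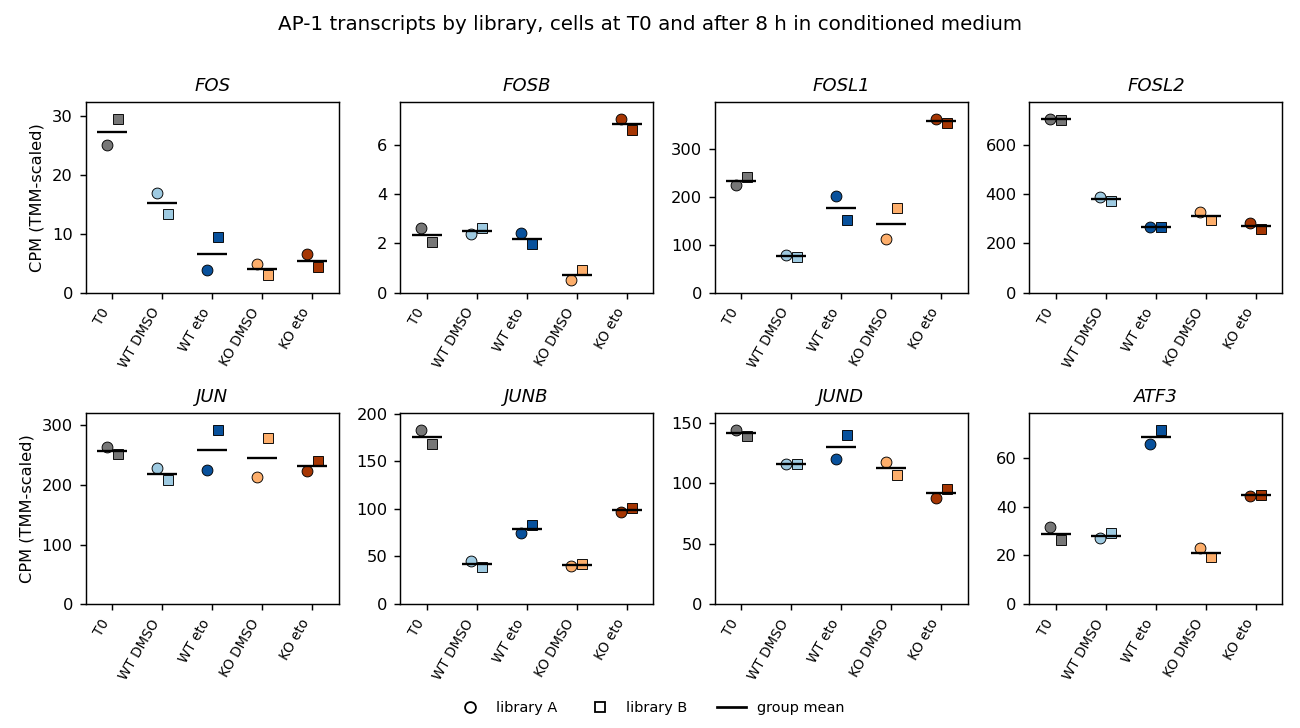
Level of each AP-1 member in CPM (linear axes from 0) in the 10 RNA libraries, 1 panel per gene, with circles for library A, squares for library B and a line for the group mean. FOSL1 and FOSB are highest in KO etoposide medium, ATF3 in WT etoposide medium, and FOSL2 and JUNB at T0.

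FOSL1 encodes FRA-1, a late-induced FOS protein linked to invasion. Its level was 226 and 243 CPM at T0, 79.0 and 75.3 in WT DMSO medium, 112 and 177 in KO DMSO medium, 202 and 152 in WT etoposide medium and 363 and 355 in KO etoposide medium. The KO etoposide libraries were the highest of all 10 and the WT DMSO libraries the lowest, while KO DMSO and WT etoposide overlapped. FOSL1 rose by 1.20 ± 0.15 between WT DMSO and WT etoposide medium (adjusted p = 4.14e-06) and by 1.31 ± 0.14 between KO DMSO and KO etoposide medium (adjusted p = 8.33e-07). The latter was 0.996 without KO DMSO library A and 1.68 without library B. The effect of etoposide did not differ detectably between donors (interaction 0.11, 95% interval -0.32 to 0.54, adjusted p = 0.822). The interaction was -0.20 without KO DMSO library A (adjusted p = 0.321) and 0.48 without B, where it was called (adjusted p = 0.0159). Between the 2 etoposide media FOSL1 was 1.02 ± 0.14 higher with KO donors (adjusted p = 0.00016), and between the 2 DMSO media 0.91 ± 0.15 higher (adjusted p = 0.0243). The DMSO difference was 1.23 without KO DMSO library A and 0.55 without B, and it lost its call without WT DMSO library A (adjusted p = 0.248) or B (0.200) and in the fit of only the groups compared (0.310).

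FOSL2 encodes FRA-2, a FOS protein that also acts in bone-forming cells. It stood at 704.4 and 700.1 CPM at T0, 389 and 371 in WT DMSO, 328 and 297 in KO DMSO, 266 and 265 in WT etoposide and 282 and 259 in KO etoposide medium. T0 was above every conditioned medium, and the 2 etoposide media overlapped at the bottom of the order. FOSL2 fell by 0.52 on the log2 scale with etoposide in WT medium (SE 0.07, adjusted p = 1.81e-05). In KO medium it fell by 0.21 (SE 0.07, adjusted p = 0.0314), a call lost without KO DMSO library A (-0.16, adjusted p = 0.106) or KO etoposide library B (0.217) and in the fit of only the groups compared (0.141). Without KO DMSO library B the change was -0.27. The etoposide media did not differ detectably from each other (0.03, 95% interval -0.13 to 0.18).

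FOS, the prototype immediate-early gene, made up no more than 5.21% of the RNA of the FOS genes on a per-length scale. It measured 25.1 and 29.5 CPM at T0, 17.0 and 13.4 in WT DMSO, 4.89 and 3.09 in KO DMSO, 3.84 and 9.39 in WT etoposide and 6.54 and 4.37 in KO etoposide medium. T0 and WT DMSO stood above the other 3 groups, which overlapped. Between the 2 etoposide media FOS did not differ detectably (-0.25 ± 0.30, adjusted p = 0.629). FOS fell by 1.22 with etoposide in WT medium (SE 0.26, adjusted p = 0.00125), by 0.69 without WT etoposide library A and by 1.98 without library B. In KO medium the change was 0.46 ± 0.32 (95% interval -0.22 to 1.13, adjusted p = 0.285). That value was 0.80 without KO DMSO library A and 0.16 without B, 0.12 without KO etoposide library A and 0.71 without B, with no call in these fits. With no filter on low counts it was 0.44 and called (adjusted p = 0.0450). The interaction was 1.68 ± 0.41 (adjusted p = 0.0433), and it lost its call when any of WT DMSO A, WT DMSO B, WT etoposide A, KO etoposide A or KO etoposide B was left out (adjusted p 0.0533 to 0.308). After 8 h the levels in the DMSO media also differed between donors: FOS was lower in KO DMSO than in WT DMSO medium (-1.93 ± 0.28, adjusted p = 0.0139). That call ended without WT DMSO library A (adjusted p = 0.248) or B (0.0970).

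FOSB, which also yields the stable splice form ΔFOSB, was the least abundant FOS gene per length. Its libraries read 2.64 and 2.04 CPM at T0, 2.40 and 2.63 in WT DMSO, 0.526 and 0.926 in KO DMSO, 2.41 and 1.98 in WT etoposide and 7.04 and 6.61 in KO etoposide medium. The KO DMSO values stood on 10 and 18 counts and the KO etoposide values on 141 and 127. T0, WT DMSO and WT etoposide overlapped, KO etoposide lay above them and KO DMSO below. FOSB rose by 3.22 ± 0.26 with etoposide in KO medium (adjusted p = 1.23e-08), with 2.85 and 3.68 when KO DMSO library A or B was left out. In WT medium it changed by -0.19 (95% interval -0.69 to 0.32, adjusted p = 0.596), and the interaction was 3.40 ± 0.37 (adjusted p = 0.000109). FOSB was 1.62 ± 0.21 higher in KO than in WT etoposide medium (adjusted p = 6.69e-05) and lower in KO than in WT DMSO medium (-1.78 ± 0.30, adjusted p = 0.0243). The DMSO difference lost its call without WT DMSO library A (adjusted p = 0.248) or B (0.181).

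JUNB, a JUN protein that often opposes JUN on growth genes, followed the etoposide media closely. It measured 183 and 168 CPM at T0, 45.2 and 39.3 in WT DMSO, 40.4 and 41.7 in KO DMSO, 74.8 and 82.7 in WT etoposide and 96.6 and 101 in KO etoposide medium. The 2 DMSO media overlapped at the bottom and every other step of the order was free of overlap. JUNB rose by 0.90 ± 0.09 in WT medium (adjusted p = 1.65e-07) and by 1.27 ± 0.09 in KO medium (adjusted p = 1.23e-09), with an interaction of 0.37 (95% interval 0.12 to 0.62, adjusted p = 0.106). It was 0.33 ± 0.08 higher in KO than in WT etoposide medium (adjusted p = 0.0126). This last call was lost without WT etoposide A (adjusted p = 0.147), KO etoposide A (0.0550) or KO etoposide B (0.0925).

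JUND is usually the steady, constitutive JUN protein. Its levels were 144 and 139 CPM at T0, 116.4 and 115.8 in WT DMSO, 118 and 107 in KO DMSO, 120 and 140 in WT etoposide and 88.3 and 95.2 in KO etoposide medium. The KO etoposide libraries were below all others. JUND fell by 0.29 with etoposide in KO medium (SE 0.08, adjusted p = 0.00871), a call lost without KO etoposide library A (adjusted p = 0.0854). In WT medium it changed by 0.16 (95% interval -0.01 to 0.33, adjusted p = 0.134). The interaction was -0.45 ± 0.12 (adjusted p = 0.0474) and lost its call without WT DMSO A or B, WT etoposide B, KO etoposide A or KO etoposide B (adjusted p 0.0546 to 0.237). Between etoposide media JUND was lower with KO donors (-0.50 ± 0.08, adjusted p = 0.000556).

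JUN, the main partner of FOS proteins and the substrate of JNK, had 263 and 251 CPM at T0, 228 and 209 in WT DMSO, 213 and 279 in KO DMSO, 226 and 292 in WT etoposide and 224 and 240 in KO etoposide medium. Each group overlapped its neighbour in the order of means. JUN changed by 0.24 in WT medium (95% interval 0.01 to 0.48, adjusted p = 0.106) and by -0.08 in KO medium (95% interval -0.32 to 0.16, adjusted p = 0.608). Without KO DMSO library A the KO change was -0.29 and called (adjusted p = 0.0139), and without B its sign turned, at 0.13 (adjusted p = 0.312). Without WT etoposide library A the WT change was called (adjusted p = 0.0176), as it was in the fit of only the groups compared (0.0124) and with no filter on low counts (0.0119).

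ATF3, the stress-induced partner, rose with both etoposide media and was the member whose highest level was in WT etoposide medium without overlap. It read 31.6 and 26.2 CPM at T0, 27.2 and 29.2 in WT DMSO, 23.1 and 19.2 in KO DMSO, 65.6 and 71.5 in WT etoposide and 44.5 and 44.8 in KO etoposide medium. Both etoposide groups lay above all other libraries. ATF3 rose by 1.28 ± 0.10 in WT medium (adjusted p = 1.21e-08) and by 1.08 ± 0.11 in KO medium (adjusted p = 1.89e-07), with an interaction of -0.20 (95% interval -0.51 to 0.10, adjusted p = 0.492). It was lower in KO than in WT etoposide medium (-0.62 ± 0.10, adjusted p = 0.000413), opposite in sign to FOSL1 and FOSB.

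**Figure D2:**
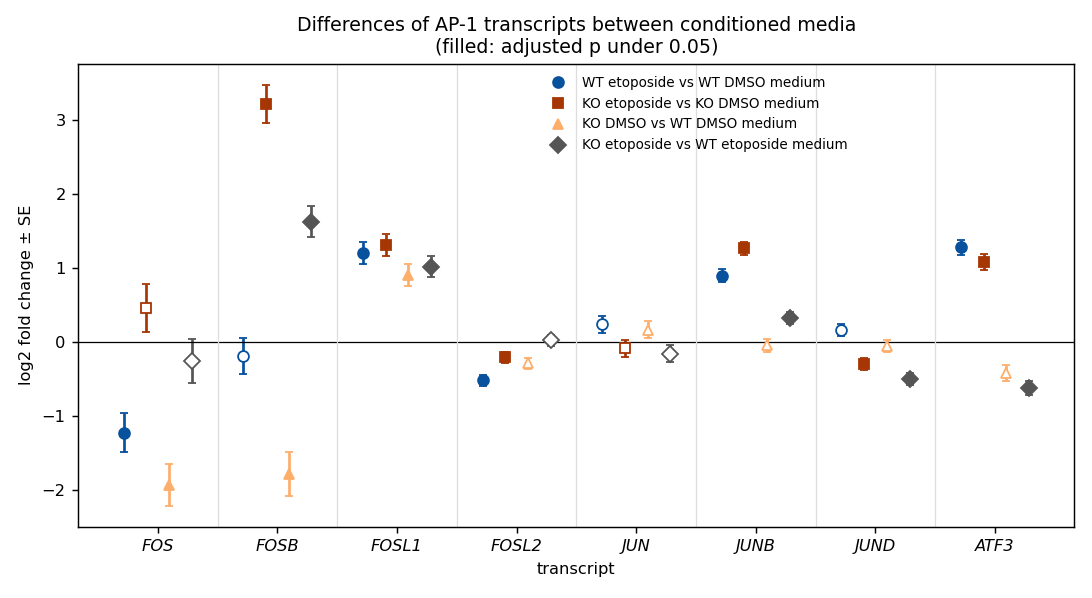
Log2 fold change of each AP-1 member, with bars of 1 standard error, in 4 comparisons between conditioned media; symbols are filled where the adjusted p is under 0.05. FOSL1, JUNB and ATF3 lie above 0 with filled symbols for etoposide against DMSO medium of both donors, and FOSB stands at 3.22 for KO donors.

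Counted over the family, 3 members rose and 2 fell with etoposide in WT medium, where 34.6% of all tested genes were called (16.1% higher, 18.5% lower). With KO donors 4 rose and 2 fell, against 37.2% of genes (18.8% higher, 18.4% lower). Between the 2 etoposide media 3 were higher and 2 lower with KO donors, against 14.1% of genes (8.5% higher, 5.57% lower). Between the 2 DMSO media 1 was higher and 2 lower, against 1.56% (0.793% higher, 0.767% lower); without WT DMSO library A no gene at all was called in that comparison by edgeR (2143 at an unadjusted p under 0.05, 2 by DESeq2). The interaction was called for 3 members, FOS and FOSB upward and JUND downward, against 2.12% of genes (1.5% higher, 0.617% lower). Median changes over the 8 members were 0.20 with WT and 0.77 with KO donors, where the medians over all tested genes were 0.01 and -0.01. These comparisons share libraries, so they are set side by side and not against each other.

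Several family values moved when 1 of the divergent KO DMSO libraries was left out. The KO DMSO group then has 1 library and adds nothing to the estimate of spread. A call kept or gained in these fits is therefore not a sign of stability. The FOSB interaction was 3.04 without library A and 3.87 without B, that of FOS 2.03 and 1.39, and that of JUND -0.41 and -0.52. As given above, the FOS and JUND interactions lost their calls without either WT DMSO library or either KO etoposide library. The KO etoposide change of JUNB was 1.22 and 1.29, that of ATF3 1.19 and 0.95, and that of JUND -0.25 and -0.36. Against WT DMSO medium FOS was at -2.26 and -1.62 and FOSB at -1.40 and -2.23. Without library A that comparison also called FOSL2 (-0.32), JUN (0.39) and ATF3 (-0.52). Further members passed the interaction test in such fits: JUN at -0.53 (adjusted p = 0.00377) and FOSL2 at 0.36 (adjusted p = 0.0149) without library A, and JUNB at 0.40 (adjusted p = 0.0448) without library B. The values of the other fit were -0.11 for JUN, 0.24 for FOSL2 and 0.32 for JUNB, and ATF3 had -0.09 and -0.33, none of them called. Without A the interaction was called for 1654 genes and without B for 1082, against 326 with both.

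Relative to T0, every conditioned medium held less JUNB, FOSL2 and FOS RNA. The 4 comparisons share the T0 libraries. JUNB changed by -2.06 in WT DMSO, -2.10 in KO DMSO, -1.16 in WT etoposide and -0.83 in KO etoposide medium, all called. FOSL2 changed by -0.89, -1.17, -1.40 and -1.38 in the same order, all called, so its lowest levels were in the etoposide media and not in the DMSO media as for JUNB. FOS changed by -0.85, -2.78, -2.07 and -2.32, and the first of these lost its call without T0 library B (adjusted p = 0.0747) or WT DMSO library B (0.104) and by DESeq2 (0.185). FOSL1 went from -1.60 in WT DMSO to 0.62 in KO etoposide medium, and it stood at -0.70 in KO DMSO medium, -0.38 without its library A and -1.07 without B. ATF3 was above T0 in WT etoposide (1.24) and KO etoposide medium (0.63). FOSB was below T0 in KO DMSO medium (-1.68, or -1.31 without library A and -2.15 without B) and above T0 in KO etoposide medium (1.54 ± 0.21, adjusted p = 7.84e-06). In KO DMSO medium the left-out values were -2.05 and -2.12 for JUNB, -1.22 and -1.10 for FOSL2 and -3.12 and -2.48 for FOS, and JUN was called without library B (-0.28, adjusted p = 0.0228). In WT DMSO medium 0 members were above T0 and 5 below, where 17.8% of genes were higher and 17.6% lower, and in KO DMSO medium 0 and 7, where 18.1% and 18.7% were. In WT etoposide medium 1 member was above and 4 below (19.2% and 21.8% of genes), and in KO etoposide medium 3 and 4 (22.8% and 23.8%). A change of medium and 8 h of culture come with every conditioned group, and their effects cannot be told apart from that of the conditioning.

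The make-up of the FOS family shifted from FOSL2 to FOSL1 between the DMSO and the etoposide medium of each donor. On the RPKM scale, which divides by gene length, FOSL2 made up 64.8% ± 0.37 (SD, n = 2) of the FOS family RNA in WT DMSO medium and 24.5% ± 0.73 in KO etoposide medium. FOSL1 made up 29.8% and 30.1% in the WT DMSO libraries and 73.3% and 74.6% in the KO etoposide libraries. These 2 groups are the extremes and differ in both donor and treatment. T0 lay between them, with means of 54.5% for FOSL2 and 41.4% for FOSL1. In KO DMSO medium the 2 libraries gave FOSL1 shares of 43.1% and 57.0%, and in WT etoposide medium 54.96% and 62.5%, so these groups overlapped. FOS itself held 4.77% ± 0.62 in WT DMSO medium and 0.909% ± 0.23 in KO etoposide medium, and FOSB no more than 0.659% in any library. The summed FOS family level was 323 RPKM at T0, 147 in WT DMSO, 163 in KO DMSO, 171 in WT etoposide and 277 in KO etoposide medium (means of 2 libraries).

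Within the JUN family, JUNB took a larger share in the etoposide than in the DMSO media. JUNB made up 39.2% ± 0.71 at T0, 15.7% ± 0.85 in WT DMSO, 14.7% ± 0.69 in KO DMSO, 23.2% ± 1.36 in WT etoposide and 31.9% ± 0.39 in KO etoposide medium. JUN held between 31.4% ± 0.23 at T0 and 47.9% ± 5.85 in KO DMSO medium, and JUND between 27.3% ± 0.22 in KO etoposide and 40.0% ± 1.64 in WT DMSO medium. Summed JUN family levels ran from 148 RPKM in WT DMSO medium to 246 RPKM at T0. Shares within a sum show unequal change only, since a larger share of 1 member lowers the others.

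**Figure D3:**
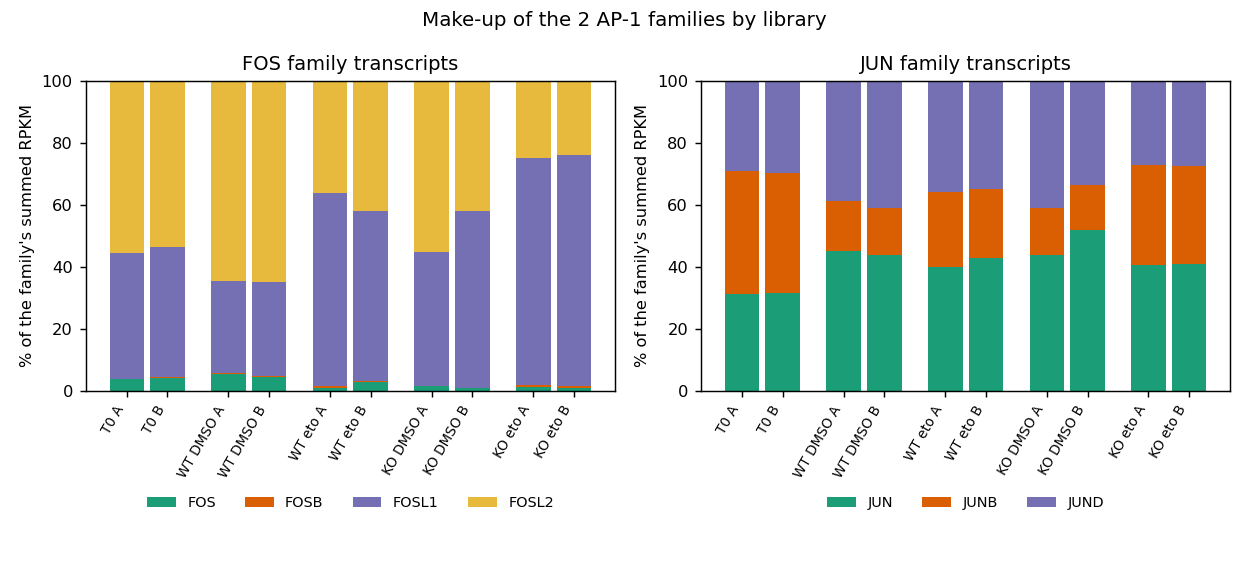
Share of each member in the summed RPKM of the FOS family (left) and the JUN family (right), as 1 stacked bar per RNA library. FOSL1 fills 29.8% and 30.1% in the WT DMSO libraries and 73.3% and 74.6% in the KO etoposide libraries.

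Most genes commonly given as AP-1 targets were higher in etoposide than in DMSO medium with either donor. Of 22 tested targets 14 rose and 0 fell with WT donors (8 were not called; 16 had an unadjusted p under 0.05, and DESeq2 called 14), with a median of 0.66. With KO donors 17 rose and 1 fell (median 1.06), and 15 were higher and 0 lower in KO than in WT etoposide medium (median 0.61). Of all tested genes 16.1% rose and 18.5% fell with WT donors, and 18.8% rose and 18.4% fell with KO donors. Between the etoposide media 8.5% were higher and 5.57% lower with KO donors. The KO count stayed at 17 and 1 without either KO DMSO library. Against T0 the targets were mostly lower in the DMSO media: 1 was higher and 15 lower in WT DMSO medium (median -1.20), and 3 and 15 in KO DMSO medium (median -0.93). In WT etoposide medium 2 were above T0 and 10 below (median -0.33), and in KO etoposide medium 6 and 3 (median 0.19). CXCL8, the neutrophil chemokine IL-8, read 34.9 and 34.1 CPM at T0, 0.459 and 0.708 in WT DMSO, 0.578 and 0.566 in KO DMSO, 4.73 and 5.04 in WT etoposide and 32.9 and 35.4 in KO etoposide medium. CXCL8 rose by 5.88 ± 0.17 with KO donors (adjusted p = 3.86e-14), with an interaction of 2.84 ± 0.41 (adjusted p = 0.00159). HBEGF, an EGF receptor ligand, rose by 1.64 ± 0.09 with WT and 2.71 ± 0.09 with KO donors, with an interaction of 1.07 ± 0.13 (adjusted p = 0.000394). IL11, a cytokine of the IL-6 family, rose by 1.79 ± 0.13 and 2.87 ± 0.12, with an interaction of 1.07 ± 0.18 (adjusted p = 0.0071). The interactions of CXCL8 (adjusted p = 0.0648) and IL11 (0.0623) lost their calls without WT DMSO library B. Without KO DMSO library A or B, the KO change was 5.87 in both fits for CXCL8, 2.54 and 2.86 for HBEGF and 2.67 and 3.07 for IL11. The interaction in those fits was 2.83 and 2.82 for CXCL8, 0.91 and 1.23 for HBEGF and 0.88 and 1.28 for IL11. In all 6 targets passed the interaction test upward and 0 downward, against 1.5% and 0.617% of genes. This count was 3 without WT DMSO A or WT etoposide B, 1 without WT DMSO B and 13 without KO DMSO B, while without KO DMSO A 6 passed upward and 1 downward. Between DMSO media 5 targets were higher with KO donors (0.793% of genes higher), led by PLAU (urokinase, 0.85 ± 0.17, adjusted p = 0.0266). These 5 calls ended without WT DMSO A, WT DMSO B or KO DMSO B and in the fit of only the groups compared, while 13 were higher and 1 lower without KO DMSO A. PLAU itself was at 1.17 without KO DMSO A and 0.49 without B.

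Other immediate-early genes moved in the same direction as FOSL1 and JUNB in most cases. Of 19 tested, 12 rose and 1 fell with WT donors (median 0.61) and 17 rose and 0 fell with KO donors (median 0.85), or 15 and 16 rose without KO DMSO library A or B. Among all tested genes 16.1% rose and 18.5% fell with WT donors, and 18.8% rose and 18.4% fell with KO donors. BTG2, an antiproliferative gene that is also a p53 target, rose by 2.11 ± 0.09 and 2.33 ± 0.09, and IER3 by 1.24 ± 0.07 and 1.82 ± 0.07. The KO values were 2.41 and 2.25 for BTG2 and 1.86 and 1.76 for IER3 without KO DMSO library A or B. EGR1, a zinc-finger factor induced by the same routes as FOS, measured 110 and 115 CPM at T0, 213 and 175 in WT DMSO, 69.1 and 47.8 in KO DMSO, 77.5 and 181 in WT etoposide and 166 and 156 in KO etoposide medium. Like FOS, EGR1 was higher in WT etoposide library B than in A and was lower in KO than in WT DMSO medium (-1.73 ± 0.24, adjusted p = 0.013). The EGR1 call between DMSO media ended without WT DMSO library A (adjusted p = 0.248) or B (0.0970), and the difference was -1.99 and -1.48 without KO DMSO library A or B. Its interaction was 2.05 ± 0.33 (adjusted p = 0.00454), a call lost without KO etoposide library A (0.0664), and was 2.32 and 1.82 without KO DMSO library A or B. The interaction of EGR2 was 2.06 ± 0.38 (adjusted p = 0.0105), or 2.16 and 1.95 without KO DMSO library A or B, and it lost its call without WT DMSO A, WT etoposide B or KO etoposide A (adjusted p 0.0543 to 0.112).

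MAP kinase feedback genes, which ERK signalling induces to limit itself, showed 6 higher and 2 lower of 14 with WT donors and 9 higher and 0 lower with KO donors. Without 1 WT DMSO or WT etoposide library the WT count was 5 called in each case, and without KO DMSO library A or B the KO count was 9 higher and 0 lower or 8 and 2. The ERK phosphatase DUSP5 rose by 1.75 ± 0.18 and 1.96 ± 0.16, and the EGF receptor inhibitor ERRFI1 rose by 1.35 ± 0.10 with KO donors and had an interaction of 1.02 ± 0.14 (adjusted p = 0.00116). Without KO DMSO library A or B the KO change was 1.59 and 2.41 for DUSP5 and 1.23 and 1.45 for ERRFI1, whose interaction was 0.91 and 1.12. Of the MAP kinases upstream of AP-1, 3 rose and 7 fell of 18 with WT donors and 2 rose and 5 fell with KO donors, with medians of -0.12 and -0.09. Over all tested genes 34.6% were called with WT donors (16.1% higher, 18.5% lower). With KO donors 37.2% were called (18.8% higher, 18.4% lower), and the 7 of 18 kinases were near that share. The same shares stand beside the feedback counts above and the SRF counts below. The WT count fell to between 4 and 6 kinases without WT DMSO A, WT DMSO B or WT etoposide B, and the KO count to 4 without KO DMSO A, KO etoposide A or KO etoposide B and 5 without KO DMSO B. MAP2K3, a kinase of the p38 arm, rose by 0.46 ± 0.09 and 0.54 ± 0.08, the latter 0.37 and 0.71 without KO DMSO library A or B. For the interaction edgeR's quasi-likelihood test called 0 of the 18 kinases, 3 had an unadjusted p under 0.05, and DESeq2 called 0; without KO DMSO library A 2 were called and without B 1. Of the 7 SRF and ternary complex factor genes, which act on the FOS promoter, 0 rose and 3 fell with WT donors (3 at an unadjusted p under 0.05, 3 by DESeq2) and 2 rose and 1 fell with KO donors, also without either KO DMSO library.

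Among 16 other bZIP factors, 4 rose and 7 fell with WT donors and 4 rose and 4 fell with KO donors. The KO count was 3 and 4 without KO DMSO library A, 5 and 4 without B, and 2 and 3 without KO etoposide library B. The shares of all tested genes called were 34.6% with WT donors (16.1% higher, 18.5% lower) and 37.2% with KO donors (18.8% higher, 18.4% lower). MAFF, a small MAF protein, rose by 2.25 ± 0.13 and 2.20 ± 0.12, the latter 1.94 and 2.50 without KO DMSO library A or B. JDP2, a repressor that pairs with JUN, was 93.2 and 97.4 CPM in WT DMSO, 96.98 and 87.1 in KO DMSO, 48.9 and 55.5 in WT etoposide and 28.1 and 29.3 in KO etoposide medium. JDP2 changed by -0.87 ± 0.09 and -1.68 ± 0.09, with an interaction of -0.81 ± 0.12 (adjusted p = 0.0024). Without KO DMSO library A or B the KO change was -1.63 and -1.75 and the interaction -0.76 and -0.88.

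**Figure D4:**
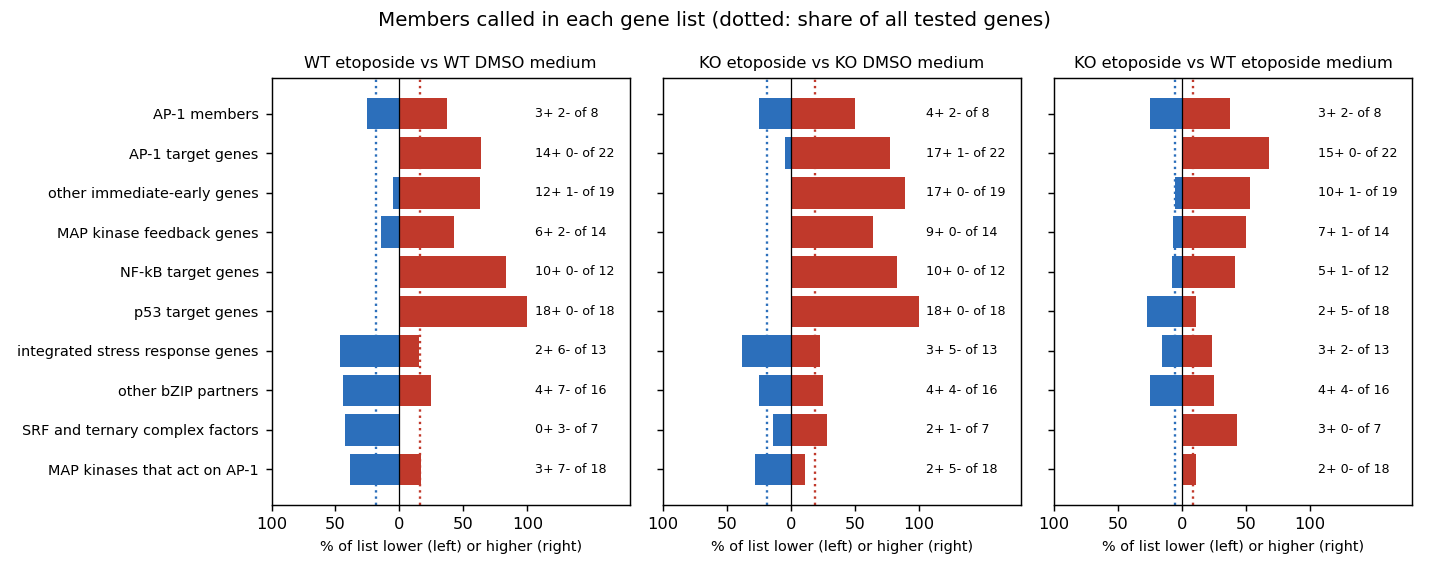
Percent of the tested genes of each list that were higher (right) or lower (left) at an adjusted p under 0.05, in 3 comparisons between media, with counts beside each bar and dotted lines for the share of all tested genes. AP-1 targets were 14 higher of 22 with WT donors and 17 with KO donors, and all 18 p53 targets were higher with both.

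Targets of other stress routes moved beside the AP-1 genes. All 18 tested p53 targets rose with both etoposide media (medians 1.42 and 1.46), with GDF15 up by 5.32 ± 0.18 and 5.31 ± 0.17, in recipients that have wild-type p53. Of 12 NF-kB targets 10 rose and 0 fell with each donor (11 at an unadjusted p under 0.05 and 10 by DESeq2 in each), led by BIRC3 at 3.41 ± 0.17 and 4.17 ± 0.17. The integrated stress response genes, of which ATF3 is a known late member, gave 2 higher and 6 lower of 13 with WT and 3 higher and 5 lower with KO donors. Beside these 3 lists, 16.1% of all tested genes rose and 18.5% fell with WT donors. With KO donors 18.8% of all tested genes rose and 18.4% fell. Without KO DMSO library A or B, all 18 p53 targets still rose with KO donors, 9 and 11 NF-kB targets rose, and the stress response counts were 2 and 5 or 3 and 6. The KO change of GDF15 was then 5.57 and 5.07 and that of BIRC3 3.85 and 4.57. The part of these routes in the AP-1 changes was not tested, and etoposide left in the medium cannot be told apart from what the donors secreted.

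By Pearson correlation of log2 CPM over the 10 libraries, among 9542 other genes of at least 10 CPM, the closest patterns to FOSL1 were KRTAP2-3 (r = 0.993), LAMB3 (0.985) and SPRED3 (0.984). For FOSL2 they were KLF13 (0.991), NFATC1 (0.989) and COL11A1 (0.989), for JUNB CHST3 (0.987), P3H2 (0.981) and RND3 (0.979), and for ATF3 IP6K2 (0.986), ARVCF (0.979) and TSNAX (0.974). JUND was closest to NUPR1 (0.981), OPLAH (0.932) and RHOBTB1 (0.927). The highest values were lower for the other 3 members: TRIM37 (0.949), MYO9A (0.944) and FSTL1 (0.934) for FOS, and DCP1A (0.954), ZMYM6 (0.935) and SYNJ1 (0.920) for FOSB. JUN was closest to MRPL23 (0.938), DUS3L (0.920) and IDH3B (0.915). The points share groups and libraries, so these values describe this experiment only.

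The authors' deposited table holds 1 comparison, and its values match KO against WT etoposide medium: the median absolute difference from the log2 changes given here was 0.00316 over 13604 genes. In the authors' deposited table FOSL1 was at 1.02 (adjusted p = 0.00101), FOSB at 1.63 (1.34e-05), JUNB at 0.33 (0.00942), JUND at -0.50 (3.51e-06) and ATF3 at -0.62 (8.37e-06). The remaining members, FOS, FOSL2 and JUN, were not past 0.05 in the authors' deposited table either, and the largest difference for a member was 0.0285.

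In the pooled screen, where fewer guide copies mean fewer surviving or dividing cells with that gene cut, JUN was the only member called in the 96 h comparisons by edgeR, fitted to all 18 libraries with TMM scaling. Its 5 guides, summed, were fewer in KO cells after 96 h in DMSO than at T0 (0.81-fold) and more numerous in etoposide than in DMSO. Etoposide against T0 was not tested. In WT cells the JUN values moved the same way without passing the threshold. JUN read 52.5, 51.0 and 50.4 CPM in KO cells at T0, 44.3, 41.0 and 38.7 after DMSO and 53.3, 51.5 and 49.8 after etoposide. All 3 DMSO libraries lay below both other groups, which overlapped.

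JUN guides fell by 0.31 in KO cells between T0 and DMSO (log2FC -0.31 ± 0.06, adjusted p = 4.82e-05; 3.51% of genes called, 3.09% lower). They were higher by 0.32 ± 0.06 in etoposide than in DMSO (adjusted p = 2.92e-05; 4.23% of genes called, 3.05% higher). Both comparisons use the KO DMSO libraries. In WT cells JUN read 45.5, 49.1 and 52.4 CPM at T0, 45.4, 39.7 and 46.2 in DMSO and 49.5, 47.7 and 49.3 in etoposide. The WT etoposide libraries lay above the DMSO ones, and T0 overlapped both. The WT changes were -0.16 ± 0.06 over time (adjusted p = 0.0666) and 0.15 ± 0.06 with etoposide (adjusted p = 0.160). The interaction of genotype and etoposide was 0.17 by edgeR's quasi-likelihood test (unadjusted 95% interval 0.01 to 0.33, unadjusted p = 0.0412). It was not called after adjustment over all genes (adjusted p = 0.465).

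The 5 JUN guides share the target gene and are not replicates of a condition. In KO cells all 5 were lower after DMSO than at T0 (mean -0.28 ± 0.16 SD over guides, range -0.54 to -0.11) and all 5 were higher in etoposide than in DMSO (0.28 ± 0.18, range 0.03 to 0.54). The guide listed as HGLibB_23968 was called on its own in both comparisons (-0.54 ± 0.12, adjusted p = 0.00514, 0.609% of guides called, and 0.54 ± 0.12, adjusted p = 0.00533, 0.841%). It read 13.5, 13.9 and 13.4 CPM at T0, 11.4, 8.47 and 8.33 in DMSO and 14.8, 13.8 and 12.3 in etoposide. In WT cells 3 of the 5 JUN guides were lower over time and 4 of 5 higher with etoposide.

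**Figure D5:**
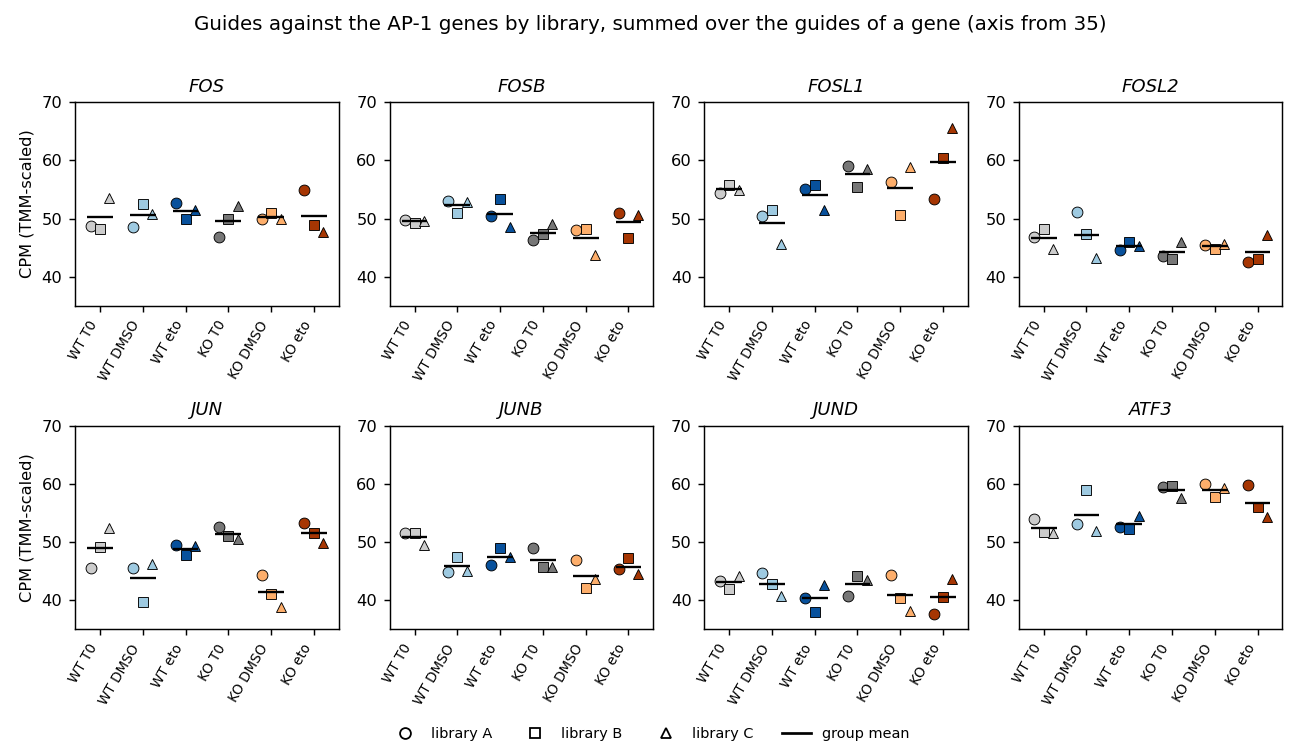
Summed guide level of each AP-1 member in CPM (axes from 35 to 70) in the 18 screen libraries, with circles, squares and triangles for libraries A, B and C and a line for the group mean. JUN in KO cells lies at 50.4 to 52.5 at T0, at 38.7 to 44.3 in DMSO and at 49.8 to 53.3 in etoposide.

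By that test none of the other 7 members was called over 96 h or with etoposide in either genotype. Over 96 h in WT cells, edgeR's quasi-likelihood test called 0 of 8 members, against 6.53% of genes, while 3 had an unadjusted p under 0.05 (FOSL1, JUN and JUNB) and DESeq2 called 1, JUNB. FOSL1 read 54.4, 55.8 and 54.9 CPM at T0 and 50.4, 51.5 and 45.6 after DMSO, below T0 in all 3 libraries (-0.16, adjusted p = 0.0531, or 0.0497 in the fit of only the groups compared), and JUNB changed by -0.15 (adjusted p = 0.0802). Scaling to the 999 non-targeting guides instead called FOSL1 (-0.23), JUN (-0.23) and JUNB (-0.21) in that comparison. It also called FOSL1 (0.18) and JUN (0.19) with etoposide in WT cells. Under that scaling 2862 of 19044 genes were called over 96 h in WT cells (21 higher, 2841 lower). With etoposide 1048 were called (1032 higher, 16 lower). The median log2 change over all genes moved by -0.06 and 0.04, so these member calls came with a shift of all genes. All 6 FOSL1 guides had negative values over 96 h in WT cells (-0.51 to -0.002). All 6 had positive values with etoposide (0.04 to 0.28 in WT cells, 0.002 to 0.36 in KO cells). In each of these comparisons 1 guide had an unadjusted p under 0.05 by edgeR and 0 were called. Over 96 h in KO cells 3 FOSL1 guides were higher and 3 lower. Both WT comparisons use the WT DMSO libraries, and the guides are not replicates of a condition. With etoposide in WT cells 0 of 8 were called (2.2% of genes; 2 at an unadjusted p under 0.05, 0 by DESeq2), and for the interaction 0 of 8 (0.0525% of genes; 1 at an unadjusted p under 0.05, 0 by DESeq2). Summed per gene, the guides for FOS, FOSB, FOSL2 and JUND stayed within 0.13 of 0 on the log2 scale in all of these comparisons. Single guides ranged more widely: JUND guide HGLibA_24008 was at -0.53 over 96 h in KO cells and FOSB guide HGLibB_17776 at 0.48 for the interaction, neither called.

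Before any treatment, ATF3 guides were higher in the KO than in the WT pool. They read 53.9, 51.8 and 51.6 CPM in WT and 59.5, 59.7 and 57.5 in KO cells at T0, with no overlap (0.17 ± 0.05, adjusted p = 0.0349; 4.54% of genes called, 2.4% higher). Leaving out any 1 of the 6 libraries ended the call, at adjusted p between 0.0565 and 0.134. The FOSB guide listed as HGLibA_17797 was lower in KO cells at T0 (-0.47 ± 0.12, adjusted p = 0.026; 2.67% of guides called), at 7.92, 7.47 and 7.97 CPM against 11.2, 9.36 and 11.8 in WT cells. The summed FOSB guides differed by -0.06 (adjusted p = 0.588). How the guide library was split between the 2 lines is not given, so pool composition and growth before T0 cannot be told apart.

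Of the 19 MAP kinases with guides, 3 were lower over 96 h in WT cells, where 6.53% of all genes were called: the JNK kinases MAP2K4 (-0.23 ± 0.05, adjusted p = 0.000268) and MAP2K7 (-0.20 ± 0.05, adjusted p = 0.0122) and the p38 kinase MAPK14 (-0.17 ± 0.05, adjusted p = 0.0153). Over 96 h in KO cells edgeR called 0 of the 19, where 3.51% of all genes were called (0 at an unadjusted p under 0.05, 0 by DESeq2). With etoposide in KO cells 1 of 19 was called, near the 4.23% of all genes: MAPK8, which encodes JNK1, at 0.24 ± 0.06 (adjusted p = 0.0153). Its interaction was 0.26 (adjusted p = 0.242).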

How the data were processed

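RNA was measured in 10 libraries and guide DNA in 18. The authors deposited raw read counts per gene symbol and per guide; per the submitters' processing notes the guides were aligned with Bowtie2, DESeq2 was used for both assays and the RNA build was hg19, while no source used here gives the RNA aligner, annotation, strand setting or guide library. The authors' deposited DESeq2 table gives log2 fold changes, their standard errors, p-values, a Wald score and a normalized mean signal for 1 comparison; its log2 changes and adjusted p-values are quoted as such, and the others were not used for any result. Without strand, reads of overlapping or antisense genes cannot be told apart.

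Each assay was fitted over all its libraries in R 4.3.3 with edgeR 4.0.16: TMM scaling, the filterByExpr filter for RNA, group means, quasi-likelihood tests, and Benjamini-Hochberg adjustment over all 15391 genes, 19044 screen genes (guides summed, at least 3 guides) or 109367 guides, with a threshold of 0.05. CPM used TMM library sizes and RPKM the deposited gene lengths. Standard errors are the log2 change divided by the square root of F. Correlations used log2 CPM with a prior count of 2. The scripts were tested on simulated data. DESeq2 1.42.0, limma 3.58.1, RLE scaling, no filter, only the groups compared, a replicate block, scaling on 999 non-targeting guides, guides of mean count 100 or more and leaving out each library were alternatives. Among all 109367 guides of the screen, the lowest mean count of a guide over the 18 libraries was 62.6.

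Named were the 8 members, from each list the 3 genes of smallest p in a comparison described, and per member the 3 genes of highest correlation. A further gene of the rule is not reported here. EGR1 was named by that rule through the interaction. Members and lists were chosen with earlier results of these data known. The files use names without coordinates; promoter sequences come from RefSeq.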

Additional observations from a re-analysis of the deposited data

Results flagged for a closer look

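For 3 members the effect of etoposide-conditioned medium differed between WT and KO donors by the interaction term of edgeR's quasi-likelihood test. FOSB gave 3.40 ± 0.37 (adjusted p = 0.000109): it was at 2.40 and 2.63 CPM in WT DMSO and 2.41 and 1.98 in WT etoposide medium, and at 0.526 and 0.926 in KO DMSO and 7.04 and 6.61 in KO etoposide medium. FOS gave 1.68 ± 0.41 (adjusted p = 0.0433), falling in WT medium and not called in KO medium. FOS did not differ detectably between the 2 etoposide media (-0.25 ± 0.30, adjusted p = 0.629) and was lower in KO than in WT DMSO medium (-1.93 ± 0.28). JUND gave -0.45 ± 0.12 (adjusted p = 0.0474), falling in KO medium and not called in WT medium. The interaction call was lost in 6 of 12 alternatives for FOS and in 6 of 13 for JUND. DESeq2 gave -0.46 for JUND (adjusted p = 0.0173), but no adjusted p for FOS (1.65, unadjusted p = 0.0177) or FOSB (3.42, unadjusted p = 1.58e-11), and no adjusted p for FOSB between the DMSO media (-1.78, unadjusted p = 8.67e-06).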

How the results depend on the processing

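Over the 8 members, 1349 alternative values were computed: 1196 kept their direction and their side of the threshold, 45 lost a call, 33 gained one, 0 called values reversed and 75 values without a call changed sign. The rises of FOSL1, JUNB and ATF3 with both donors' etoposide media, the FOSB rise with KO donors and the JUN screen changes in KO cells held in all alternatives run. JUN in KO cells ranged from -0.36 to -0.27 over time (largest adjusted p 0.00348) and from 0.27 to 0.37 with etoposide (0.0025). In the fit of only the groups compared, the interactions of FOS (adjusted p = 0.0775) and JUND (0.0918) and the DMSO differences of FOSB (0.310) and FOSL1 (0.310) lost their calls. Scaling to the non-targeting guides called FOSL1 (-0.23), JUN (-0.23) and JUNB (-0.21) over time in WT cells, and FOSL1 (0.18) and JUN (0.19) with etoposide. It moved the median over all genes by -0.06 and 0.04 in these comparisons. The causes were not tested.

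Counts of called genes moved as follows. Between DMSO media, 240 genes (122 higher, 118 lower) became 1186 with no filter, 2 with only the groups compared, 388 with the replicate block and 350 with DESeq2 (224 higher, 126 lower). For the RNA interaction, 326 (231 higher, 95 lower) became 791 with no filter (467 and 324) and 114 with only the groups compared. Scaling to non-targeting guides moved WT DMSO over time from 1244 (215 higher, 1029 lower) to 2862 (21 and 2841), KO DMSO over time from 668 (80 and 588) to 1465 (14 and 1451), WT etoposide from 419 (363 and 56) to 1048 (1032 and 16), KO etoposide from 806 (581 and 225) to 895 (771 and 124), the T0 comparison from 865 (458 and 407) to 2253 (2101 and 152) and the screen interaction from 10 to 21. For single guides it moved WT DMSO from 1683 to 3195, KO DMSO from 666 to 1164, WT etoposide from 407 to 755 and the T0 split from 1498 higher and 1425 lower to 3215 and 912. Only the groups compared gave 500 for KO etoposide (416 and 84), 6 for the screen interaction and 2064 for T0, and DESeq2 gave 99 and 1355 for the last pair.

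Replicate letters paired the libraries weakly at most. Correlations of deviations ran from -0.04 to 0.10 in RNA and from -0.05 to 0.17 over 45 screen pairs (4 over 0.1). With 2 RNA libraries a group, letters A and B give the same value by construction, so each RNA value counts once. In the screen, KO T0 against KO DMSO gave 0.10, 0.06 and 0.17 for letters A, B and C. The replicate block changed 1 of 120 member calls and gave 17 genes against 10 and 5 guides against 3 for the screen interaction.

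Leaving out 1 library leaves an RNA group with 1, assumed to vary like the others. Called genes then ranged from 3532 to 3936 for WT etoposide medium, 4176 to 5941 for KO etoposide medium, 776 to 1055 between etoposide media, 30 (without KO etoposide A) to 1654 (without KO DMSO A) for the interaction, and, against T0, 3618 to 3914, 3608 to 5878, 4453 to 4845 and 5253 to 5737 for WT DMSO, KO DMSO, WT etoposide and KO etoposide. Between DMSO media the range was 0 without WT DMSO A (edgeR; 2143 at an unadjusted p under 0.05, 2 by DESeq2) to 3047 without KO DMSO A. Screen genes ranged from 851 to 1128 and 437 to 573 over time in WT and KO cells, 258 to 421 and 519 to 688 with etoposide, 4 to 21 for the interaction and 329 to 413 at T0. Guides ranged from 973 to 1424, 338 to 565, 191 to 323, 511 to 830, 1 to 5 and 577 to 981 in that order. The RNA spread rests on 2 libraries a group, and FOSB on 10 and 18 counts in KO DMSO medium.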
